A study of Cucumis sativus with 4 samples.

Results

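A set of 5 regulators of the epidermal outgrowths of the cucumber fruit were followed here: CsGL3 (Csa6G514870), CsGL1 (Csa3G748220), CsTTG1 (Csa4G097650), CsTu (Csa5G577350) and NS (Csa2G264590). The rule that chose them used identifiers alone, from their pairing with gene names in work on cucumber spines and warts. Earlier results of these data were known when the choice was made. All 5 were among the 17180 genes listed. The identifiers place them on chromosomes 6, 3, 4, 5 and 2 in that order. The table itself pairs no identifier with a name, and the RefSeq gene table at hand matched 0 of its identifiers, so the pairing could not be checked here. That table does hold 1 gene with the symbol TTG1, but no link from it to Csa4G097650.

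Messenger RNA was sequenced from young cucumber (Cucumis sativus) fruits collected 4 days before anthesis, the opening of the flower. OX-29 is a transformed line of the inbred R1407 in which CsFUL1, a MADS-box transcription factor gene, is driven by the 35S promoter of cauliflower mosaic virus, and its fruits are short. Wild-type (WT) plants were of the inbred R1407 itself, which bears long fruits; near-isogenic is the submitters' word for the pair of lines. Each line gave 2 libraries. Reads assigned to listed genes numbered 16719990 and 16326412 in the OX-29 libraries, against 19824797 and 16858940 in the WT libraries. Only 1 transformed line was sampled, so effects of CsFUL1 and other traits of OX-29 cannot be told apart. The row of CsFUL1 could not be found by name, so the line labels were not checked against its level, nor the tissue against marker genes.

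The young cucumber fruit carries spines, which are multicellular trichomes of the epidermis, and in warty types each spine sits on a raised tubercle, the wart. In this species CsGL3, a class IV homeodomain-leucine zipper (HD-Zip) transcription factor, is known to be needed for trichomes to start, while CsGL1, a class I HD-Zip factor also called MICT, is needed for started trichomes to grow and take their shape. CsTTG1, a WD-repeat protein, promotes spine formation and wart size. CsTu, a C2H2 zinc finger protein, is needed for warts to form beneath the spines. NS encodes an auxin transporter-like protein of the AUX/LAX family of auxin influx carriers, and plants that lack its function bear more spines.

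All 5 genes stood lower in both OX-29 libraries than in both WT libraries. Over all tested genes, such an order was seen in 52.2%. The unit of level is CPM, a gene's reads per 1000000 assigned reads in that library. Each of the 5 passed the threshold as lower in OX-29, while 38.4% of the 16982 tested genes were called lower and 18.6% higher (limma on log2(CPM + 0.5); the threshold was a Benjamini-Hochberg adjusted p under 0.05). The median log2 fold change of the 5 was -1.73, beside -0.38 for all tested genes. By fitted log2 fold change, CsGL3 and NS were steeper than CsGL1, CsTTG1 and CsTu. No test set them apart, and the 95% intervals of NS (-5.04 to -1.41) and CsGL1 (-3.18 to -0.27) overlapped. With 5 CPM added in place of 0.5, NS (-0.97) was shallower than CsTTG1 (-1.10). Median-of-ratios scaling moved the median of all tested genes to -0.03. With it, the calls of CsGL3, NS and CsTTG1 were kept and those of CsGL1 and CsTu were lost, while 29.2% of tested genes were called lower (3 of the 5). All 5 still had both OX-29 libraries below both WT libraries on that scale, as did 41.5% of tested genes. In bulk fruit, fewer epidermal or trichome cells and less RNA per such cell cannot be told apart.

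**Figure D1:**
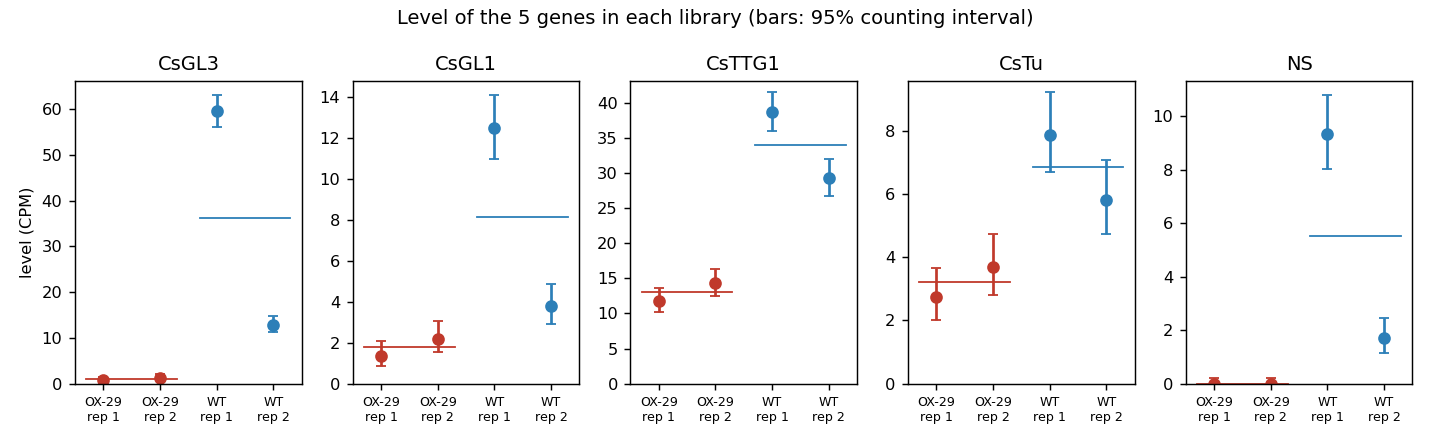
Level in CPM (linear vertical axes, one scale per gene) of each gene in OX-29 replicates 1 and 2 and WT replicates 1 and 2. Points are libraries, bars are exact 95% counting intervals and lines are line means; the OX-29 points lie below both WT points in every panel, and the WT points of CsGL3, CsGL1 and NS lie far apart.

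CsGL3, the gene of trichome initiation, changed steeply and kept some reads in OX-29. Its log2 fold change exceeded that of NS with the pseudocount of 0.5 CPM, but not with a pseudocount of 0.1 or with edgeR or DESeq2. It stood at 0.897 and 1.35 CPM in OX-29 replicates 1 and 2 (15 and 22 reads), against 59.5 and 12.9 CPM in WT replicates 1 and 2 (1180 and 218 reads). The OX-29 libraries were close to each other, whereas the WT libraries differed 4.60-fold, and the lowest WT library was still well above the highest OX-29 library. The means were 1.12 ± 0.318 CPM in OX-29 and 36.2 ± 32.9 CPM in WT (SD, n = 2 each). The log2 fold change was -4.14 ± 0.71 (SE; limma adjusted p = 0.00531), and 2.98% of tested genes had a lower one. By pooled reads CsGL3 was 34.0-fold lower in OX-29, and the exact 95% counting interval ran over 24.6 to 48.5. The size depended on the WT library kept: without WT replicate 1 the log2 fold change was -3.06, and without WT replicate 2 it was -5.22. Both of these fits leave out the gap between the WT libraries. The only spread of CsGL3 that they hold is that between the OX-29 libraries, so they cannot show whether its call withstands the WT gap. Counting intervals here and below cover counting error only, which for CsGL3 in WT was far smaller than the gap between the libraries.

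CsGL1, the HD-Zip I factor of trichome growth, stood at 1.38 and 2.21 CPM in OX-29 replicates 1 and 2 (23 and 36 reads). In WT replicates 1 and 2 it stood at 12.5 and 3.80 CPM (247 and 64 reads). The libraries of the lines did not overlap, but WT replicate 2 lay nearer to the OX-29 libraries than to WT replicate 1. Means were 1.79 ± 0.586 CPM in OX-29 and 8.13 ± 6.13 CPM in WT (SD, n = 2 each). The log2 fold change of -1.73 ± 0.58 (SE) had a 95% interval of -3.18 to -0.27 and a limma adjusted p of 0.0488, just inside the threshold. The call was lost without OX-29 replicate 1 (limma adjusted p = 0.193), without OX-29 replicate 2 (0.0994) and without WT replicate 1 (0.1004), and with median-of-ratios scaling (0.0822, log2 fold change -1.41). The edgeR quasi-likelihood test on recovered reads gave a log2 fold change of -1.80 with an adjusted p of 0.0647, and DESeq2 gave -1.80 with 0.0310.

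CsTTG1, the WD-repeat protein, was the steadiest between replicates among the 4 genes detected in both lines. It stood at 11.8 and 14.3 CPM in OX-29 replicates 1 and 2 (198 and 234 reads), against 38.7 and 29.2 CPM in WT replicates 1 and 2 (767 and 493 reads). The gap between the lines was wider than the gap within either line. Means were 13.1 ± 1.76 CPM in OX-29 and 34.0 ± 6.68 CPM in WT (SD, n = 2 each), and the log2 fold change was -1.34 ± 0.24 (SE; limma adjusted p = 0.00635). Pooled reads put CsTTG1 2.63-fold lower in OX-29, and the exact 95% counting interval ran over 2.35 to 2.94. Among the whole set of tested genes this was not an extreme change, since 26.5% had a lower log2 fold change. With median-of-ratios scaling the log2 fold change was -0.97 ± 0.24 (SE; limma adjusted p = 0.0169). Without OX-29 replicate 1 the call was narrowly lost, at a log2 fold change of -1.20 (limma adjusted p = 0.0543).

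CsTu, the zinc finger protein of wart formation, showed the smallest log2 fold change of the 5. It stood at 2.75 and 3.68 CPM in OX-29 replicates 1 and 2 (46 and 60 reads), against 7.87 and 5.81 CPM in WT replicates 1 and 2 (156 and 98 reads). The libraries of the lines did not overlap, though the gap between OX-29 replicate 2 and WT replicate 2 was about as wide as that between the WT libraries. Means were 3.21 ± 0.653 CPM in OX-29 and 6.84 ± 1.45 CPM in WT (SD, n = 2 each). The log2 fold change of -0.98 ± 0.33 (SE) had a 95% interval of -1.80 to -0.16 and a limma adjusted p of 0.0475. The call depended on the scaling: the log2 fold change was -0.65 with median-of-ratios scaling (limma adjusted p = 0.140), -0.72 with edgeR (adjusted p = 0.160), and 0.02 with quantile normalization (limma adjusted p = 0.957), where its sign changed. It was also lost without OX-29 replicate 1, OX-29 replicate 2 or WT replicate 1, with limma adjusted p of 0.276, 0.140 and 0.114 in that order.

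NS, the auxin transporter-like gene linked to spine number, had no read in OX-29. Both OX-29 libraries held 0 reads, against 9.33 and 1.72 CPM in WT replicates 1 and 2 (185 and 29 reads). NS was thus detected in both WT libraries and in neither OX-29 library, and WT replicate 1 stood 5.42-fold above WT replicate 2. The WT mean was 5.53 ± 5.38 CPM (SD, n = 2). A count of 0 in the 33046402 pooled OX-29 reads allows a level of up to 0.0908 CPM (3 counts over the line). Against that limit NS was at least 64.3-fold lower in OX-29 by pooled WT reads, at least 103-fold lower against WT replicate 1 alone and at least 18.9-fold lower against WT replicate 2 alone. These bounds leave out the counting error of the WT reads. After median-of-ratios scaling the pooled bound was at least 49.6-fold. The fitted log2 fold change was -3.22 ± 0.73 (SE; limma adjusted p = 0.0132), a size set in part by the pseudocount of 0.5 CPM: it was -5.37 with a pseudocount of 0.1 and -0.97 with 5, while the count models gave -9.42 (edgeR) and -8.57 (DESeq2). With no OX-29 reads, none of these is a bound. It was -2.15 without WT replicate 1 and -4.30 without WT replicate 2. These fits held no spread of NS itself, since both OX-29 libraries had 0 reads and a lone WT library was left. Whether they pass the threshold therefore says nothing of how NS varies.

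Among the tested genes, a lack of reads in both OX-29 libraries was uncommon but not particular to NS. Of the tested genes, 93 (0.548%) had 0 reads in both OX-29 libraries, and 11 had 0 reads in both WT libraries. The 93 genes had a median WT mean of 5.05 CPM, and 40 of them stood higher in WT than NS did. These values depend on the filters. Every listed gene reached at least 0.897 CPM in a pair of libraries, and tested genes also needed a mean of 1 CPM. A gene without reads in a line was therefore listed only if both libraries of the other line reached 0.897 CPM. This holds for NS as well, and lower genes that lacked OX-29 reads could not be counted.

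**Figure D2:**
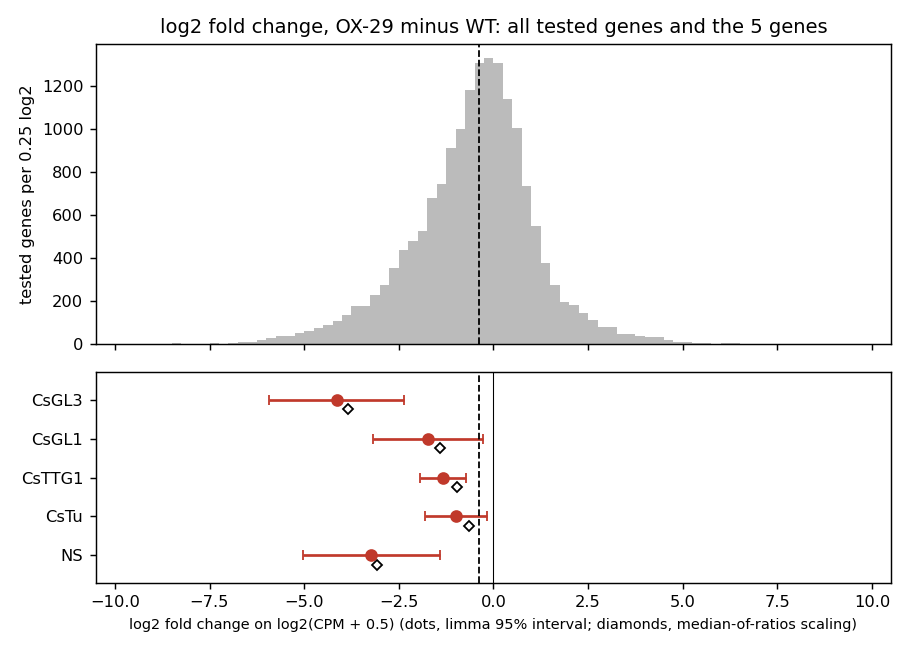
Upper panel: number of tested genes per 0.25 of log2 fold change (OX-29 minus WT), with the median of -0.38 as a dashed line. Lower panel: the 5 genes with limma 95% intervals as bars and their median-of-ratios values as diamonds; CsGL3 (-4.14) and NS (-3.22) lie in the left tail, and CsTTG1 (-1.34) and CsTu (-0.98) lie within the bulk of the genes.

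Ranks within a library, which a single scaling factor per library cannot move, separated the genes in another way. CsTu held percentiles 18.9 and 22.8 of the listed genes in OX-29 replicates 1 and 2, against 22.3 and 19.0 in WT replicates 1 and 2. Its place among the genes therefore overlapped between the lines although its CPM did not. CsGL1 overlapped as well, with percentiles 11.9 and 16.7 in OX-29 and 29.8 and 13.7 in WT. CsGL3 did not overlap: it held percentiles 8.48 and 12.2 in OX-29, against 71.6 and 32.0 in WT. CsTTG1 held 39.8 and 44.0 in OX-29 and 58.6 and 51.9 in WT, and NS held 0.556 and 0.629 in OX-29 and 24.9 and 6.14 in WT. CPM is not corrected for transcript length, so these percentiles order genes by reads and not by transcripts. The share of all tested genes whose percentiles did not overlap between the lines was not computed. By CPM, 52.2% of tested genes had both OX-29 libraries below both WT libraries, and 41.5% did after median-of-ratios scaling. Whether the lack of overlap by rank for CsGL3, CsTTG1 and NS was uncommon among genes was therefore not tested.

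**Figure D3:**
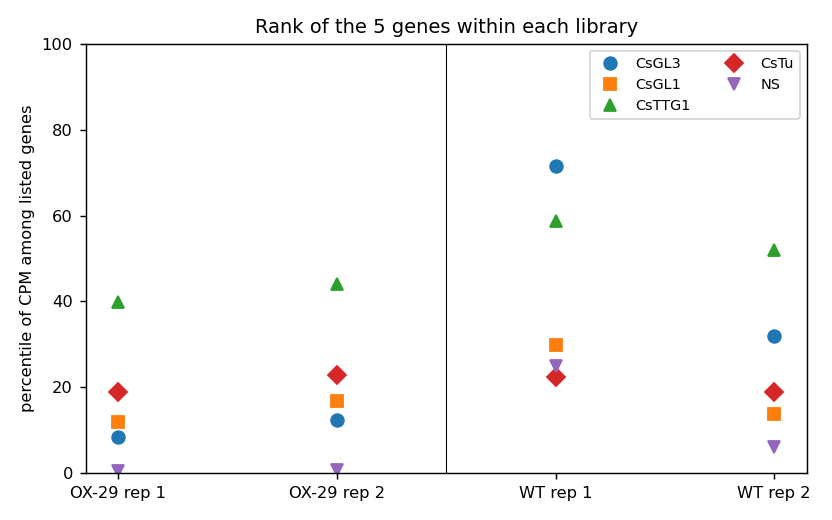
Percentile of the CPM of each gene among all listed genes (vertical axis) in each library (horizontal axis, OX-29 left of the dividing line, WT right). CsGL3 spans 8.48 to 71.6, whereas CsTu stays between 18.9 and 22.8 in all 4 libraries.

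The ratio of a pair of these genes inside a library is likewise free of the library's scaling. With NS left out, since it had no OX-29 reads, 6 pairs could be formed from 4 genes. The exact two-sided permutation test used for them cannot give a p below 0.333 with 2 against 2 libraries, so it cannot pass the threshold of 0.05 for any pair, and the ratios are given as a description. CsGL3 reads were 0.652 and 0.611 times CsGL1 reads in OX-29 replicates 1 and 2, against 4.78 and 3.41 times in WT replicates 1 and 2 (in CPM; exact p = 0.333, adjusted over the 6 pairs 0.400). Transcript length cancels when the ratio of one pair is compared between lines. Relative to CsGL1, CsGL3 thus stood lower in both OX-29 libraries than in both WT libraries. The same order held relative to CsTTG1 and CsTu, so it was not particular to the pair of initiation and growth genes. Ratios to genes outside the 5 were not computed. Relative to CsTTG1, CsGL3 stood at 0.0758 and 0.0940 in OX-29, against 1.54 and 0.442 in WT (exact p = 0.333, adjusted 0.400). The CsTTG1 to CsTu ratio was the least changed, at 4.30 and 3.90 in OX-29 and 4.92 and 5.03 in WT (exact p = 0.333, adjusted 0.400). The CsGL1 to CsTTG1 ratio was 0.116 and 0.154 in OX-29 and 0.322 and 0.130 in WT, and these overlapped (exact p = 0.667, adjusted 0.667). CsGL1 to CsTu was 0.50 and 0.60 in OX-29 and 1.58 and 0.653 in WT, so WT replicate 2 came close to OX-29 there (exact p = 0.333, adjusted 0.400). CsGL3 to CsTu was 0.326 and 0.367 in OX-29, against 7.56 and 2.22 in WT (exact p = 0.333, adjusted 0.400).

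The WT replicates differed widely from each other for 3 of the 5 genes. CsGL3, CsGL1 and NS stood 4.60, 3.28 and 5.42 times as high in WT replicate 1 as in WT replicate 2, and 2.66% of tested genes stood at least 3 times as high. CsTTG1 and CsTu were also higher in WT replicate 1, 1.32 and 1.35 times, an order shared by 56.4% of tested genes. On the log2(CPM + 0.5) scale the WT replicate difference was 2.16 for CsGL3, 1.59 for CsGL1 and 2.15 for NS, against a median absolute difference of 0.34 over all tested genes. Only 0.595%, 1.70% and 0.624% of tested genes had a larger difference in that direction. In OX-29 the 4 detected genes were all higher in replicate 2, by 1.21 times for CsTTG1 to 1.60 times for CsGL1, an order shared by 48.0% of tested genes. The number of fruits or plants behind a library is not stated in the labels, so whether these are differences between plants, between fruits or in handling cannot be told apart. The limma fit gives each gene one spread for both lines, although CsGL3, CsGL1 and NS varied more in WT than in OX-29.

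**Figure D4:**
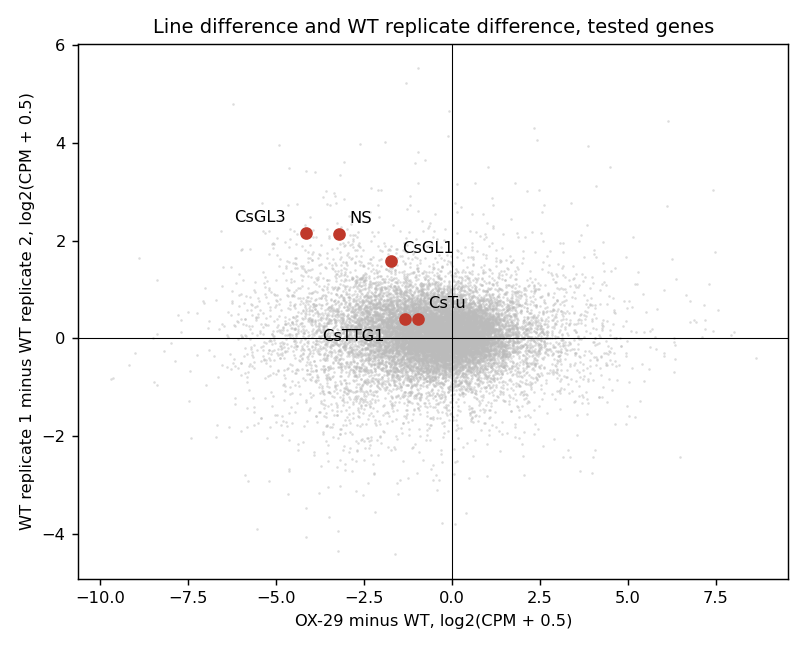
Each grey point is a tested gene, with its OX-29 minus WT difference on the horizontal axis and its WT replicate 1 minus WT replicate 2 difference on the vertical axis, both in log2(CPM + 0.5). CsGL3 and NS lie together at the upper left (replicate differences of 2.16 and 2.15), CsGL1 lies at 1.59, and CsTTG1 and CsTu lie near 0.40.

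By rank of distance, CsGL3 and NS were nearer to each other over the 4 libraries than most genes were to either. Likeness was measured as the Euclidean distance between log2(CPM + 0.5) values, each gene centred on its own mean, and it was described without a test. NS lay at a distance of 0.96 from CsGL3 and was the 96th nearest of 16981 genes, and CsGL3 was the 183rd nearest to NS. The distance itself was about that between CsGL1 and CsTTG1 (0.95), and neither CsGL3 nor NS lay within 0.5 of the other. CsTu and CsTTG1 lay at a distance of 0.36, but patterns such as theirs were common: 1551 genes lay within 0.5 of CsTu and 1453 within 0.5 of CsTTG1, against 14 for CsGL3, 32 for NS and 47 for CsGL1. CsGL1 lay between, at 0.95 from CsTTG1, 1.59 from NS and 2.45 from CsGL3. These distances share the libraries and their scaling, and they hold both the line difference and the replicate differences. With no OX-29 reads, the OX-29 values of NS were the added 0.5 CPM alone. Distances to and from NS therefore depend on that choice.

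The gene nearest to CsGL3 was Csa3G664560, at a distance of 0.27, where the median gene lay at 4.10. It stood at 4.84 and 5.39 CPM in OX-29 replicates 1 and 2, against 178 and 42.0 CPM in WT replicates 1 and 2, a log2 difference of -3.96 between the line means. The gene nearest to NS was Csa1G062350, at a distance of 0.14, where the median gene lay at 3.26. It stood at 0.538 and 0.551 CPM in OX-29, against 17.9 and 3.80 CPM in WT, a log2 difference of -3.09. Both genes were picked for their likeness over these same libraries, so these values describe the choice and carry no test. No source used here names these identifiers, so nothing is said of what they encode.

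The genes listed beside the 5 in identifier order moved in both directions. Taking the 3 nearest listed genes on each side, 30 neighbours were tested, of which 8 were called lower, 8 higher and 14 not called, with a median log2 fold change of 0.15. Over all tested genes, 38.4% were called lower and 18.6% higher. Around CsGL3, 1 of 6 neighbours was called lower and none higher, and their log2 fold changes ran from -2.49 to 0.31. Around CsTTG1, 2 of 6 were higher and none lower, with a range of -0.23 to 2.40. Around CsTu, 4 of 6 were higher and 1 lower, with a range of -1.15 to 5.34. Around CsGL1, 2 were higher and 2 lower. Around NS, 4 of 6 were lower and none higher, with a median log2 fold change of -2.08 and a lowest of -5.38. Sets of 6 genes are too small to set apart from those shares, and no test was made. Whether counting used strand is not given in the sources used here, so reads of overlapping neighbours could not be separated.

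CsGL3 passed the threshold under all 17 alternatives run, with log2 fold changes of -5.22 to -2.47. NS passed under 14 of 16, CsTTG1 under 16 of 17, and CsGL1 and CsTu under 6 each, of 16 and 17. These include the fits without a WT library, which leave out the gap between the WT libraries, wide for CsGL3, CsGL1 and NS. For NS such fits held no spread at all, since it had no OX-29 reads. Of the 5 genes, edgeR called 3 lower (29.2% of tested genes), DESeq2 called 4 (29.7%) and quantile normalization left 3 (24.3%). Without OX-29 replicate 1, 2 of the 5 were called lower (24.1% of tested genes), and without OX-29 replicate 2, 3 were (24.5%). Without WT replicate 1, 3 of the 5 were called lower (35.3%), and without WT replicate 2 all 5 were (37.2%). The sign was negative in each of these settings except for CsTu under quantile normalization.

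**Figure D5:**
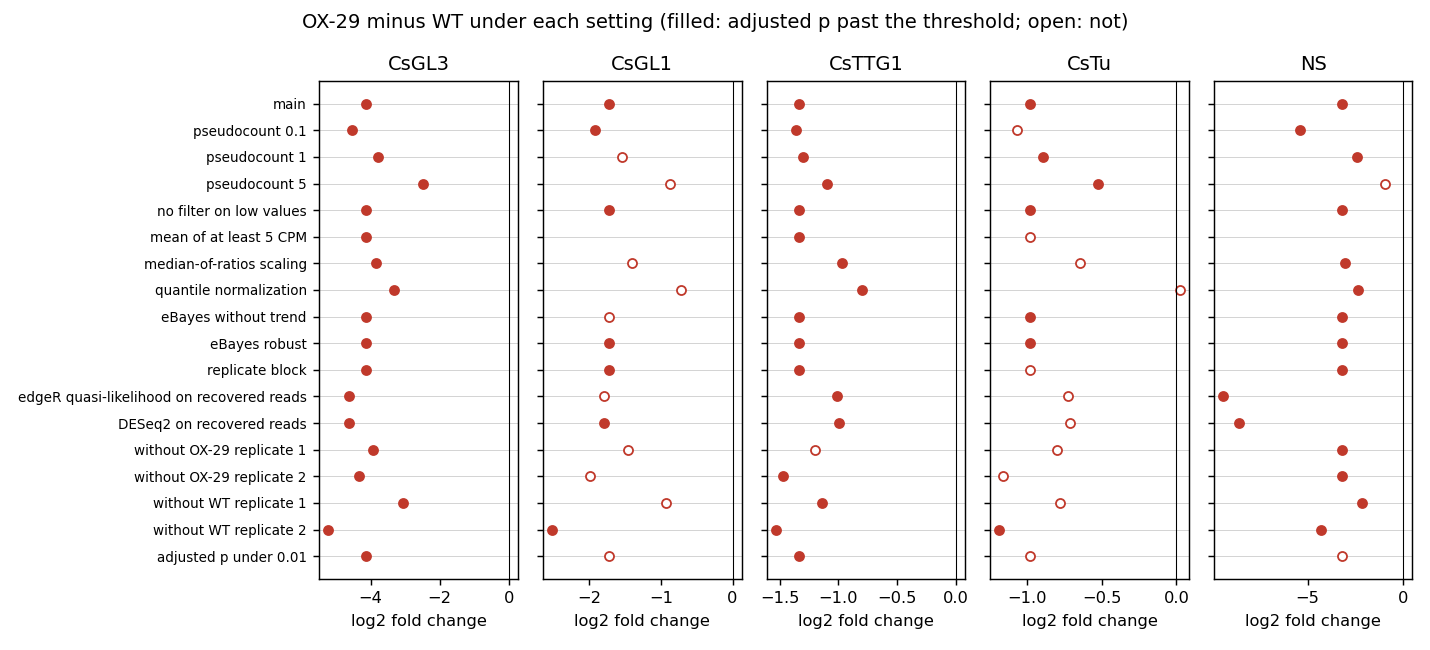
Log2 fold change (OX-29 minus WT, horizontal axes, one scale per gene) under each processing setting (rows). Filled circles passed the threshold of that row and open circles did not; CsGL3 is filled throughout, CsGL1 and CsTu are mostly open, and a missing circle marks a gene below the stricter filter of 5 CPM.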

How the data were processed

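Per the labels' protocols, poly(A) RNA was made into NEBNext Ultra libraries and sequenced as Illumina paired-end reads. TopHat and HTSeq are named in the submitters' processing notes; their versions, the build, the annotation and the strand setting were not found in the labels. The authors deposited CPM, scaled to 1000000 over the 17180 listed genes, each with at least 0.897 CPM in 2 or more libraries. CPM sharing one total means that a gene's value depends on what other genes take. All values (100%, within 0.001 reads) were whole multiples of 1 read (0.0504 to 0.0613 CPM), so whole reads were recovered. Per-sample columns not used numbered 0.

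Lines were compared with limma 3.58.1 (R 4.3.3; eBayes with trend) on log2(CPM + 0.5), OX-29 minus WT, over 16982 genes whose mean reached 1 CPM, without a block, with Benjamini-Hochberg adjustment over all of them and a threshold of 0.05. Folds on this scale understate changes of low genes. The edgeR 4.0.16 (TMM) and DESeq2 1.42.0 tests on recovered reads were alternatives. The calling steps were run on simulated data in which a small share of genes of higher level changed, equally up and down. The simulation covered neither changes as broad as these nor levels as low as those of CsGL1, CsTu and NS. It therefore does not bear on their calls. The design text calls the 2 libraries of a line biological replicates without saying from how many plants. The limma p-values rest on the spread between libraries of a line, drawn for each gene toward the trend over all tested genes. They cover no variation beyond that between such libraries. A chi-square of reads per degree of freedom was 30.6 between the OX-29 and 90.8 between the WT libraries, far above the sampling noise of 1 library split in 2. The 5 genes, the tests and the alternatives were chosen with earlier results of these data known. Named beyond the 5 were the genes most like the steepest 2 members, by a stated rule. Lists of pathway genes or of cell type markers could not be formed, for lack of gene descriptions for these identifiers. Sequences are not shown for the same reason. The distance limit of 0.5 was chosen after the file had been seen.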

Additional observations from a re-analysis of the deposited data

How the results depend on the processing

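CsGL3 kept its direction and its call in all 17 alternatives run. These include the fits without a WT library, which do not hold its wide WT replicate gap. For CsGL1 (Csa3G748220), the log2 fold change no longer passed with a pseudocount of 1 (-1.54) or 5 (-0.87), eBayes without trend (-1.73), median-of-ratios scaling (-1.41), edgeR (-1.80), quantile normalization (-0.72) or a threshold of 0.01 (-1.73), and leaving out 1 library gave -2.52 to -0.93. For CsTu (Csa5G577350), it no longer passed with a pseudocount of 0.1 (-1.07), a filter of 5 CPM (-0.98), median-of-ratios scaling (-0.65), edgeR (-0.72), DESeq2 (-0.71) or a threshold of 0.01 (-0.98), it was 0.022 with quantile normalization, and leaving out 1 library gave -1.18 to -0.78. For NS it no longer passed with a pseudocount of 5 (-0.97) or a threshold of 0.01 (-3.22); leaving out 1 library gave -4.30 to -2.15, and a pseudocount of 0.1, DESeq2 and edgeR gave -5.37, -8.57 and -9.42. CsTTG1 lost its call in 1 alternative, and leaving out 1 library gave -1.53 to -1.14. The causes were not tested. CsGL1 and NS fell under the filter of 5 CPM and have no value there.

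Over all genes, 3155 were higher and 6522 lower. Leaving out 1 library gave 1578 to 3139 higher and 4096 to 6313 lower, lowest without OX-29 replicate 1 (without OX-29 replicate 2, 1707 and 4166). A threshold of 0.01 gave 1833 and 4305, and quantile normalization gave 4689 higher and 4121 lower genes. Median-of-ratios scaling gave 4628 and 4955. With the replicate number as a block there were 3030 higher and 6390 lower genes. CsTu then missed the threshold (-0.98, limma adjusted p = 0.0668) and the other 4 kept their calls. The replicate numbers are not stated to pair samples, and across genes the replicate 1 minus 2 differences of OX-29 and WT had a correlation of -0.02. With a lone library left in a line, that library is assumed to vary as the other line does. Depth limits NS to statements above 0.0908 CPM in OX-29.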
